A study of Mus musculus with 6 samples.

Results

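The Slitrk genes encode 6 related adhesion proteins of the neuronal surface, Slitrk1 to Slitrk6. Their signals were compared in the brains of mice lacking melanotransferrin and of wild-type littermates. The members were all probe sets annotated to exactly 1 symbol that is a Slitrk gene. On these arrays a transcript is read by several short probes, summarised as a probe set. The rule found 8 probe sets for the 6 genes, of 45037 probe sets and 18193 named genes on the array. Slitrk2 and Slitrk4 had 2 probe sets each and the other 4 genes had 1. The family was chosen by the high knockout signal of Slitrk3, a value already known from the same comparison. Its differences between the genotypes are therefore given as a description, with no test.

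The labels describe 4 females labelled as melanotransferrin knockouts (MTf -/-), of the strain C57BL/6 - Lucy, and 2 wild-type females (MTf +/+), of the strain C57BL/6. All were littermates aged 123 days, and total brain RNA of each was hybridised to 1 Affymetrix mouse expression array. The labels name no treatment. The sources used here explain neither the word Lucy nor the knockout allele nor the dissection. The numbers 1 to 4 and 1 to 2 below only name an array.

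A Slitrk protein crosses the membrane once. Outside the cell it carries leucine-rich repeats like those of the Slit proteins, and in most members the inner tail has tyrosines like those of the Trk neurotrophin receptors. At synapses the family acts mainly from the postsynaptic side, where it binds presynaptic receptor phosphatases of the LAR type and promotes the build-up of release sites opposite it. Slitrk3 acts with the phosphatase encoded by Ptprd and is known for a role at inhibitory synapses, while several other members promote excitatory ones.

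Some values of the whole series touch every result here. Wild type 1 was the dimmest array, with a median signal of 192.5 against 238.2 to 278.3 on the other 5, and it held the lowest value of 31.0% of all probe sets. Knockout 2 lacked the signal of cerebellar genes: Gabra6, a granule cell receptor subunit, read 87.6 there. It also read lower in the other knockouts, at 6937.6 to 10703.7, than in wild type, at 15710.5 and 12019.8. All 7 neuronal markers on the list used, such as Snap25 and Rbfox3, lay above the median signal on every array. The linear summed signals overlapped between the groups for all 13 marker lists of brain cell types and regions. The mean log2 deviation, which weights the genes of a list equally, was lower in every knockout for 2 of the 13. For the cerebellum list it was 0.86, -4.08, 0.30 and 0.86 in knockouts 1 to 4, against 1.03 and 1.04, with 6 of 6 genes lower. For the astrocyte list it was 0.022, -0.21, -0.094 and 0.015, against 0.16 and 0.10, with 4 of 7 genes lower. Their part in the Slitrk values was not tested. Meltf, the targeted gene, was dim on its only probe set, with 80.7, 132.9, 155.9 and 84.1 in the knockouts and 146.5 and 228.7 in wild type. These groups overlapped, and the sources used here do not place the probes relative to the deleted part, so Meltf does not check the labels.

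Slitrk3 was the member whose groups stood apart. Knockouts 1 to 4 had signals of 334.5, 586.8, 476.7 and 278.1, against 65.5 for wild type 1 and 98.8 for wild type 2. Every knockout value lay above both wild-type values, and the lowest knockout was 2.81 times the higher wild type. The knockout mean was 419 ± 139.6 (SD, n = 4) and the wild-type mean 82.2 ± 23.6 (SD, n = 2), a ratio of mean signals of 5.10. On the log2 scale, after 49.6 was added to each signal, the difference was 1.79 with a standard error of 0.35, or 3.47-fold. Only 15 of the 45037 probe sets had a larger positive difference.

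The position of Slitrk3 among all probe sets of an array does not depend on how arrays were scaled to each other. The knockout arrays 1 to 4 had it at percentiles 54.8, 66.7, 63.1 and 50.0, and the wild-type arrays at 28.9 and 30.1. Slitrk3 was thus near or above the middle of each knockout array and in the dim part of each wild-type array. Of all probe sets, 2.03% had a log2 difference above 1, and in 11.3% every knockout lay above every wild type. The rule used this contrast, so nothing is read from these shares. In 4.81% every knockout lay below every wild type, a pattern that 0 of the 8 Slitrk probe sets had. At the limma adjusted threshold of 0.05, 0% of the array was called, or 0 probe sets, while 3046, or 6.76%, had an unadjusted p below 0.05, of which 2217 were higher in the knockout (4.92% of all) and 829 lower (1.84% of all).

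The size of the Slitrk3 value depended on the added offset, since both wild-type signals were of the order of the offset itself. With an offset 4 times larger the log2 difference was 1.11, and with one 0.25 times as large it was 2.16. It was 1.61 without wild type 1, the dimmest array, and 1.63 without knockout 2, the array lacking cerebellar signal. Knockouts 2 and 3, with the highest Slitrk3, also had the highest summed signals of the striatal marker list, at 13493 and 11277. The sums were 6796 and 8293 in knockouts 1 and 4, and 9060 and 7991 in wild types 1 and 2. Knockouts 2 and 3 also had the highest sums of the neuron list, at 207226 and 203598. The same held for the cortex and hippocampus list, at 18870 and 17305. The part of these regions or of neurons in the Slitrk3 signal was not tested. In whole brain RNA, a change in the number of expressing cells and a change in RNA per cell cannot be told apart.

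**Figure D1:**
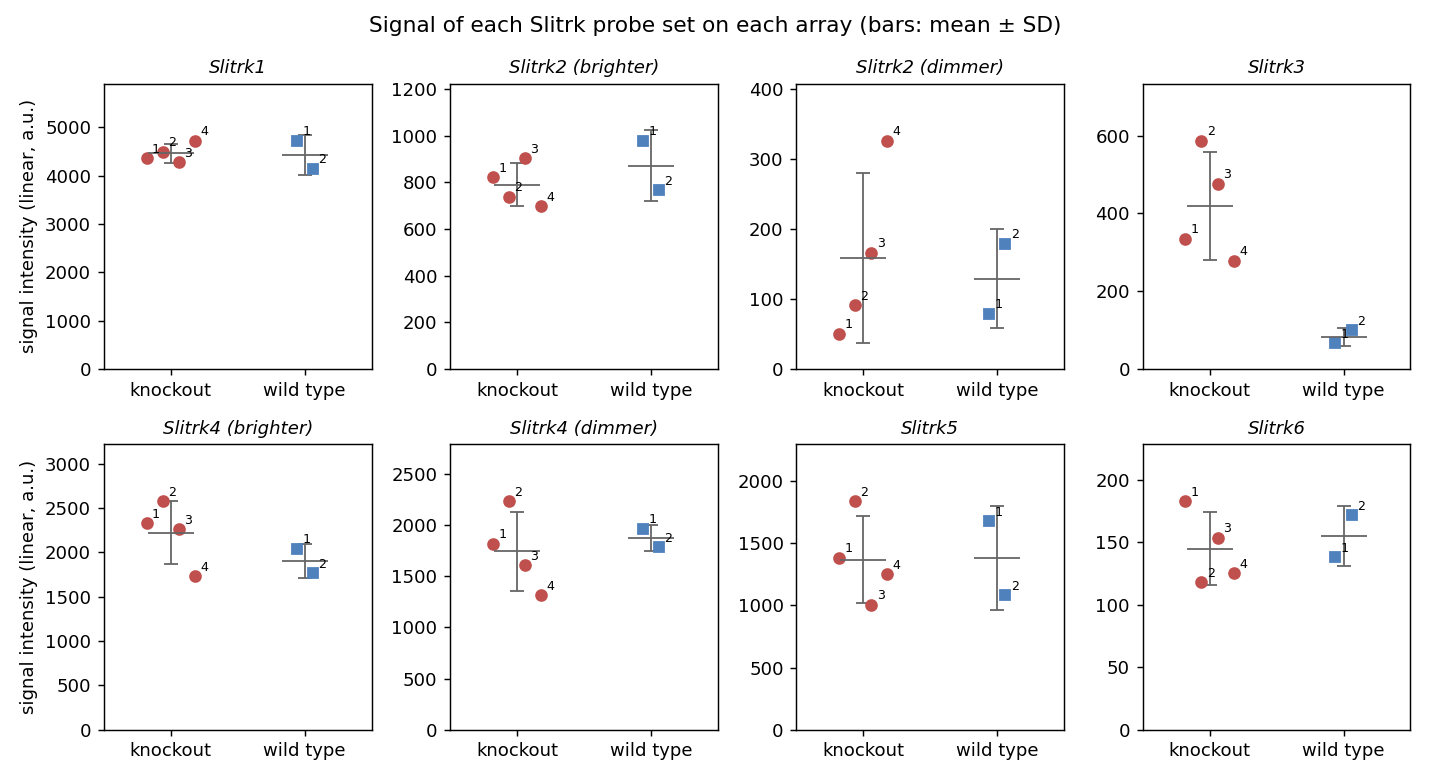
Linear signal of the 8 Slitrk probe sets on each array, 1 panel per probe set, with knockouts as circles, wild types as squares, array numbers beside the points and bars for the mean ± SD (n = 4 and n = 2). The Slitrk3 knockouts lie between 278.1 and 586.8 and the wild types at 65.5 and 98.8, while the groups overlap in the other 7 panels.

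Promoter windows of the member with separated groups, Slitrk3, and of the steadiest member, Slitrk1, are printed for comparison. They come from RefSeq on GRCm38.p6 and span 300 bases around a transcription start, and the table matched 5 of the 6 genes. Slitrk3 lies at chr3:73057017-73057316 and Slitrk1 at chr14:108914190-108914489, both on the minus strand. Capitals mark CG dinucleotides, the sites of DNA methylation in mammals.
Slitrk3: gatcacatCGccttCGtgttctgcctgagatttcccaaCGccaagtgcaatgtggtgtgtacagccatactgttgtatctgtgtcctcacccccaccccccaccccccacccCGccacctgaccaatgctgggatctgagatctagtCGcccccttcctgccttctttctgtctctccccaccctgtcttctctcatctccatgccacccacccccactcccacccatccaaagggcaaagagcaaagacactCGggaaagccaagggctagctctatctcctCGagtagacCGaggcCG
Slitrk1: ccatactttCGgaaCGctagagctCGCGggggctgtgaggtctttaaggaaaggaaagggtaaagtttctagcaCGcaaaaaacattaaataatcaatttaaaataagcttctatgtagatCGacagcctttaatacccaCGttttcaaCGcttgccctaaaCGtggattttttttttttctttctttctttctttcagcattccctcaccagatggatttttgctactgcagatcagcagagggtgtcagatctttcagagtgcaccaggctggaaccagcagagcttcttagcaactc
Each window held 9 CG dinucleotides, against a median of 7 over 32851 promoters of the same length. The share of G and C was 58.0% for Slitrk3, 42.3% for Slitrk1 and 52.7% at the median. The cyclic AMP response element TGACGTCA, its part TGACG, the E-box CACGTG, the GC box GGGCGG and the TATA box TATAAA were searched on both strands. TGACG lies within the full element, so these searches overlap. None of these letters occurred in either printed window, while 1.79%, 20.8%, 7.15%, 35.7% and 13.6% of all promoters held them. The full element TGACGTCA occurred in 1 of the 2 windows of Slitrk2.

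Slitrk1, which promotes neurite growth and excitatory synapses, was nearly constant. It read 4353.1, 4493.9, 4275.9 and 4720.8 in the knockouts and 4720.6 and 4138.5 in wild type. The wild-type values enclosed 3 of the 4 knockout values, and the highest array exceeded the lowest by a factor of 1.14. The means were 4461 ± 195.3 (SD, n = 4) and 4430 ± 411.6 (SD, n = 2), with a log2 difference of 0.012 and a standard error of 0.12. The coefficient of variation among knockouts was 4.38%, lower than in all but 2.05% of probe sets and below the median of 16.5% among the 27022 brighter ones.

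Slitrk2 and Slitrk4 are X-linked, and each was read by 2 probe sets whose log2 differences had opposite signs. The brighter Slitrk2 probe set gave 821.0, 737.8, 902.9 and 696.7 in the knockouts and 978.0 and 765.3 in wild type. Wild type 1 was the highest array and knockout 4 the lowest, and the groups overlapped. The log2 difference was -0.13 with a standard error of 0.18. The dimmer Slitrk2 probe set gave 50.6, 91.3, 166.3 and 326.4 in the knockouts and 79.1 and 178.9 in wild type. Here knockout 4 was the highest array and knockout 1 the lowest, with both wild types between them, and the log2 difference was 0.10 with a standard error of 0.54. This was the only Slitrk probe set in the lowest 40% of mean levels, and its coefficient of variation among knockouts was 76.7%.

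The brighter Slitrk4 probe set read 2328.8, 2573.0, 2258.4 and 1727.1 in the knockouts and 2039.9 and 1766.2 in wild type. Knockouts 1 to 3 lay above both wild types and knockout 4 below both. The log2 difference was 0.21 with a standard error of 0.17, and it was 0.32 without knockout 4 and 0.13 without knockout 2. The dimmer Slitrk4 probe set read 1821.7, 2233.5, 1608.1 and 1315.4 in the knockouts and 1968.4 and 1786.6 in wild type. Knockout 2 was again the highest and knockout 4 the lowest, yet the mean was lower in the knockout, with a log2 difference of -0.13 and a standard error of 0.19.

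Probe sets of a gene were set against each other over the 6 arrays, which made 2 pairs. For Slitrk4 Pearson's r was 0.67 (exact permutation p = 0.136, adjusted over the 2 pairs 0.272) and Spearman's rho 0.71 (exact permutation p = 0.136, adjusted 0.242). Without knockout 4 and wild type 2, the arrays farthest from the median, r was 0.42. For Slitrk2 r was -0.50 (exact permutation p = 0.315, adjusted 0.315) and rho -0.60 (exact permutation p = 0.242, adjusted 0.242). It was -0.83 without wild type 1 and knockout 3. At this number of arrays neither pair passed, so no agreement or disagreement between probe sets of 1 gene was detectable.

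Slitrk5, a neuronal member known for its role in connections from cortex to striatum and in the trafficking of the BDNF receptor, varied between mice of the same genotype. It read 1385.3, 1836.9, 1005.1 and 1249.1 in the knockouts and 1676.7 and 1084.1 in wild type. Its coefficient of variation among knockouts was 25.5%, against a median of 26.5% over all probe sets and 16.5% among the 27022 brighter ones. Both groups held a high and a low array, and the log2 difference was -0.012 with a standard error of 0.24. The sign was set by single arrays, at 0.29 without wild type 1 and -0.32 without wild type 2. Slitrk6, known best for the innervation of the inner ear, was dim in whole brain. It read 182.5, 118.1, 153.6 and 125.2 in the knockouts and 138.1 and 171.6 in wild type, with overlap and a log2 difference of -0.080 (standard error 0.34).

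Over the 8 probe sets, 4 were higher and 4 lower in the knockout, with a median log2 difference of 0.00, against 0.078 over all probe sets. Without Slitrk3 the range was -0.13 to 0.21 and the median -0.012. Centring each array on its median lowers every difference between the groups by the same amount. The median over all probe sets was then -0.14 and that of the Slitrk probe sets -0.21, while Slitrk3 was at 1.58. After this centring Slitrk6 lay lower in every knockout than in either wild type, as it did after quantile normalisation. The share of all probe sets that did so is not given here, so nothing is read from this.

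**Figure D2:**
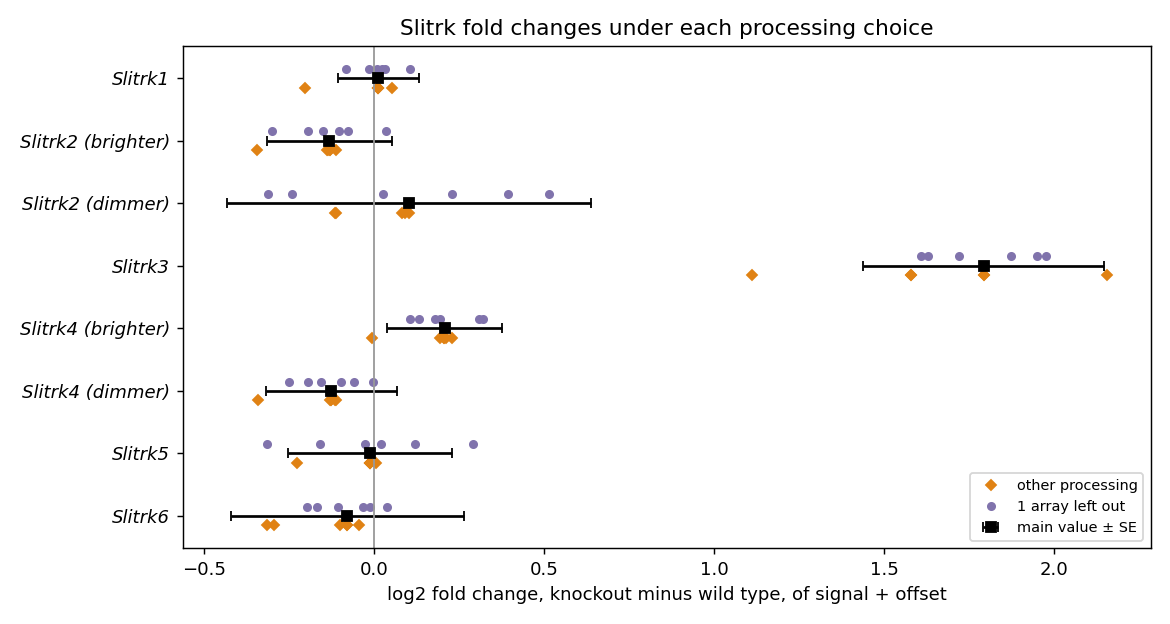
Log2 difference between knockout and wild type for each Slitrk probe set (horizontal axis). Squares with bars give the value ± SE, diamonds other processing and circles the values with 1 array left out. Slitrk3 lies between 1.11 and 2.16 in all of these, while the other 7 probe sets lie between -0.35 and 0.52.

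The highest and lowest array differed between the Slitrk probe sets. Knockout 2 was the highest array for Slitrk3, Slitrk5 and both Slitrk4 probe sets, 4 of the 8, beside 14.9% of all probe sets. It was also the lowest array for Slitrk6. Slitrk3 was chosen by its high knockout signal, and the Slitrk4 probe sets read the same gene. Nothing about knockout 2 is therefore read from this count. In this mouse the mean deviation from the 6-array mean, on the log2 scale, was -4.08 for the cerebellum markers, 0.48 for the striatum markers and 0.30 for the cortex and hippocampus markers. The part that a missing region plays in the Slitrk values of this mouse was not tested. Knockout 4 was the lowest array for both Slitrk4 probe sets and the brighter Slitrk2 one, and the highest for Slitrk1 and the dimmer Slitrk2 one.

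**Figure D3:**
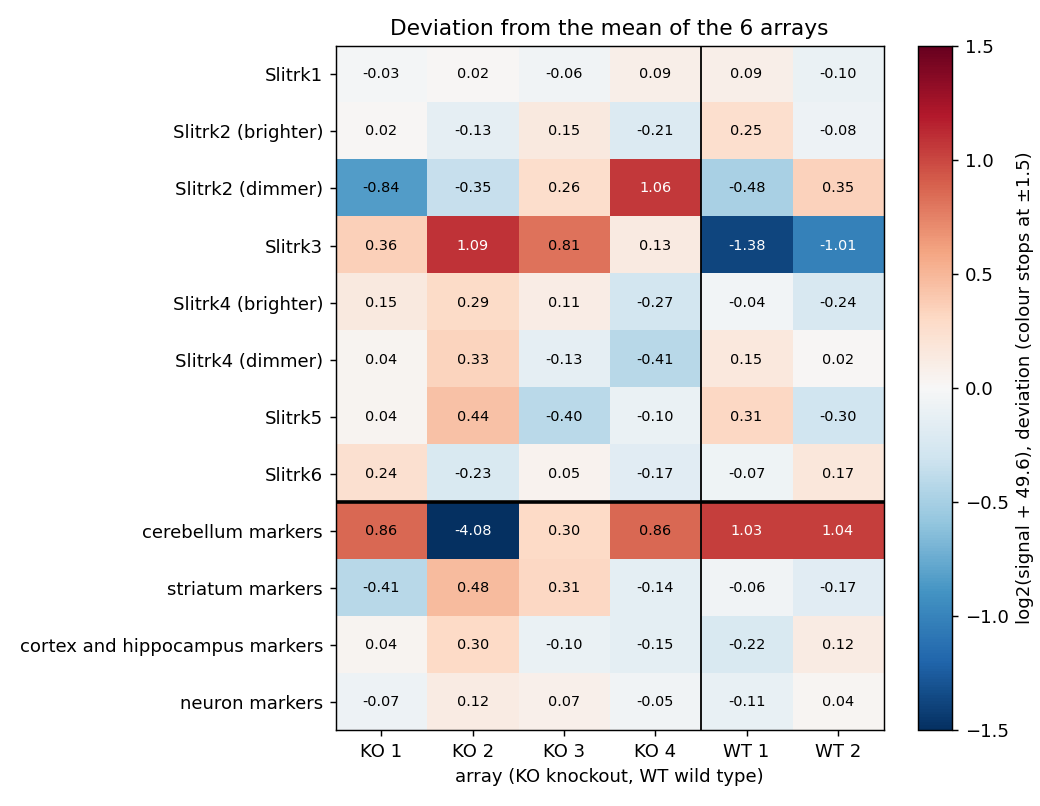
Deviation of each Slitrk probe set from its mean over the 6 arrays, in log2 units, above the same for the mean of 4 marker lists; columns are arrays and the colour stops at ±1.5. Slitrk3 is below its mean in both wild types and above it in all 4 knockouts, and the cerebellum markers are at -4.08 in knockout 2.

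The genes do not lie near Meltf, which is on chromosome 16. Slitrk1, Slitrk6 and Slitrk5 follow each other on chromosome 14 with 0 annotated protein-coding genes between neighbours, Slitrk4 and Slitrk2 lie on chromosome X with 2 between them, and Slitrk3 is on chromosome 3. Of the 6 measured neighbours of Slitrk3, 3 were higher and 3 lower. Gm20754, the nearest, had a log2 difference of 0.28 with overlap, and Nmd3 and B3galnt1 were at 0.11 and 0.0097. Bche, which encodes butyrylcholinesterase, had a mean of 521.9 ± 152.9 (SD, n = 4) in knockouts and 558.3 ± 14.2 (SD, n = 2) in wild types; the log2 difference was -0.13 and the groups overlapped. On the other side Sptssb, a subunit of serine palmitoyltransferase, had a mean of 401.7 ± 87.6 (SD, n = 4) in knockouts, below the 542.6 ± 20.1 (SD, n = 2) of wild types. Its log2 difference was -0.41, with every knockout below both wild types and a limma adjusted p of 0.759. Of the 19 genes nearest to the Slitrk genes with a probe set, 0 passed in limma and 11 were higher and 8 lower, where 60.3% of all probe sets were higher. An unadjusted p below 0.05 was reached by 2 of the 19, where 6.76% of all probe sets reached it.

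The presynaptic partners of the family were measured by 14 probe sets for 3 genes, Ptprs, Ptprd and Ptprf. In either direction 0 of them passed in limma. The 3 of 14 at an unadjusted p below 0.05 were all higher in the knockout, as were 2217 of the 3046 such probe sets on the array. Over all probe sets 6.76% reached this p, and 4.92% reached it and were higher. Every knockout lay above both wild types for 3 of the 14, or 21.4%, against 11.3% of all probe sets. The list was chosen with earlier results of these data known, so nothing is read from these shares. The median log2 difference was 0.32, and 13 of 14 probe sets were higher, where 60.3% of all probe sets were. After median centring 10 of 14 were higher, with a median of 0.10, where 34.3% of all probe sets were higher and their median was -0.14. Ptprd, the partner of Slitrk3, read 10005.1, 11225.4, 9317.6 and 9790.2 in the knockouts and 8109.6 and 9601.3 in wild type on its brightest probe set. The groups overlapped, with a log2 difference of 0.19, a standard error of 0.14 and a limma adjusted p of 0.794. A dimmer Ptprd probe set separated the groups, with 535.7, 437.0, 385.1 and 231.7 in the knockouts and 111.9 and 193.2 in wild type. Its log2 difference was 1.13 with a standard error of 0.36, higher in 4 of 4 knockouts, and it did not pass (limma adjusted p = 0.738). The remaining Ptprd probe sets, of 7 in all, were at 0.02, 0.31, 0.32, 0.72 and 0.43 and overlapped.

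Ptprs, the partner of several Slitrk proteins at excitatory synapses, was 0.29 on the log2 scale on its brightest probe set (limma adjusted p = 0.738). It read 8909.3 to 10459.9 in the knockouts and 7938.9 and 8143.6 in wild type, so that the groups did not overlap. A dimmer Ptprs probe set was at 0.95 (limma adjusted p = 0.738). It read 195.8 to 309.2 in the knockouts and 83.5 and 130.6 in wild type, also without overlap. The remaining Ptprs probe sets were at 0.31 and 0.34 and overlapped. Ptprf was 0.15 and overlapped. The cytoplasmic partners of these phosphatases, such as the liprin-alpha genes, had a median of 0.054 over 21 probe sets. Ntrk2, the BDNF receptor, was 0.11 on its brightest probe set and overlapped. Its second brightest was at 0.20, with every knockout above both wild types. The rest of its 8 probe sets overlapped, at -0.12, 0.11, -0.15, -0.18, 0.53 and 0.47.

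On the inhibitory synapse list, 7 of 13 genes were measured by 22 probe sets named to 1 gene. The median log2 difference was 0.13, 0 passed in limma, and 1, lower in the knockout, was at an unadjusted p below 0.05, against 6.76% of all probe sets. Of the 22 probe sets, 17 were higher, where 60.3% of all probe sets were, with a median of 0.078. After median centring 7 of 22 were higher, with a median of -0.085, where 34.3% of all were higher and their median was -0.14. The probe set below 0.05 was the brightest of Slc32a1, at -0.40 with overlap (limma adjusted p = 0.738). Gphn, the scaffold of inhibitory synapses, was -0.054 and Nlgn2, the neuroligin of inhibitory synapses, 0.022 on their brightest probe sets, both with overlap. Dimmer Gphn probe sets were at 0.17, with overlap, and -0.30, with every knockout below both wild types. The dimmer Nlgn2 probe set was at 0.38 with overlap. Gad1, the main enzyme of GABA synthesis, read 23106 ± 824.4 (SD, n = 4) against 23057 ± 176.6 (SD, n = 2). On the excitatory list, 13 of 16 genes were measured by 39 probe sets, with a median of 0.11, 0 passed in limma and 5 at an unadjusted p below 0.05, 4 higher and 1 lower, again beside 6.76% of all probe sets.

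Over the partner and synapse lists together, 0 of 224 probe sets for 83 genes passed in limma. All knockouts lay above all wild types for 27 of them, or 12.1%, and below for 8, or 3.57%, against 11.3% and 4.81% of all probe sets. The 10 of these with the smallest p, Ptprd among them, had a limma adjusted p of 0.738 each. They are single probe sets, and other probe sets of the same gene often differed. A probe set of Grin2b, a glutamate receptor subunit gene, was higher in 4 of 4 knockouts at 0.78, while the other 3 were at -0.0081, 0.11 and 0.045 and overlapped. For Nrxn3, a neurexin, the fourth brightest of 5 probe sets was higher in 4 of 4 knockouts at 0.64, while the brightest was at -0.03 and the other 3 at 0.39, 0.26 and 0.44, all with overlap. Among leucine-rich repeat genes, Elfn2 at 0.75 and Lrfn2 at 0.79 had 1 probe set each, higher in 4 of 4 knockouts. Lrrc4 was at 0.47 and 0.058 on its 2 probe sets and Flrt1 at 0.44 and 0.54, where the second of each overlapped. A dim Camk2a probe set was at 1.81 with wild-type signals of 12.9 and 42.9, below the offset. The brightest one of this gene was at 0.21 and the others at 0.59, 0.84, 0.33 and 0.02, all with overlap. On its brighter probe set Nlgn1, the neuroligin of excitatory synapses, was at 1.05 with 674.3 in wild type 1 and 2108.3 in wild type 2. With wild type 1 as the only wild-type array this probe set was at 1.84. The dimmer Nlgn1 probe set was at -0.38 with overlap. A probe set of the adhesion gene Amigo1 was the only 1 of the 10 that was lower, at -0.56, with the other 4 of this gene at -0.29, 0.04, 0.19 and -0.37.

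**Figure D4:**
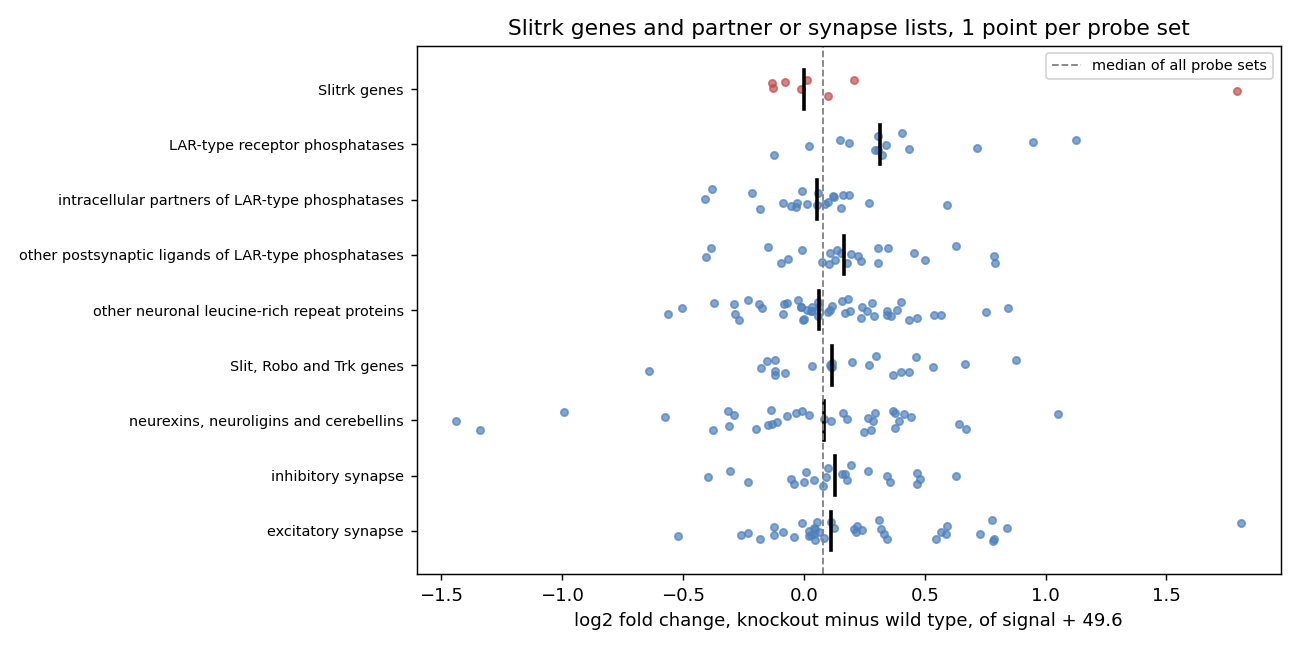
Log2 difference between knockout and wild type (horizontal axis) for each probe set of the Slitrk genes and of 8 partner or synapse lists, with a bar at the median of each list and a dashed line at 0.078, the median of all probe sets. Slitrk3 at 1.79 stands apart from the other 7 Slitrk probe sets, and the phosphatase list has its median at 0.32.

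Likeness of pattern was taken as Pearson's r of log2 values over the 6 arrays, among 23062 brighter probe sets with 1 symbol. It is a description only, since 6 arrays give high values for many genes: r exceeded 0.9 for 285 genes with Slitrk3 and for 126 with Slitrk1. The genes most like Slitrk3 were Pknox2, a homeobox gene, at 0.999, and Zfp462 and Mapk1ip1l at 0.996 each. Pknox2 read 223.7, 301.9, 260.2 and 203.6 in the knockouts and 100.4 and 117.5 in wild type, the same order of arrays as Slitrk3. These r values largely reflect the gap between the groups, which both genes share. Slitrk5 was most like Csrnp3 (r = 0.996), Prkaa2 (r = 0.994), a catalytic subunit of AMP-activated protein kinase, and Gabra5 (r = 0.992), a GABA receptor subunit. Their log2 differences between the groups were -0.042, -0.011 and 0.025. The brighter Slitrk4 probe set was most like Synj1 (r = 0.992), the synaptic vesicle phosphatase synaptojanin, with 6270.3 in knockout 2 and 4142.5 in knockout 4. Slitrk1 was nearest to Rab11b (r = 0.992), the brighter Slitrk2 probe set to Kiz (r = 0.994) and Slitrk6 to Pisd-ps3 (r = 0.993).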

How the data were processed

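For every array the authors deposited a linear signal intensity of each probe set. The submitters' processing notes name GCOS 1.3 alone; the sources used here do not state how probes were summarised and scaled. Within each array, the middle 96% of values averaged 999.57 to 999.914. Of 45101 rows, 64 Affymetrix controls were left out. Symbols came from the platform annotation: 34945 probe sets had 1 symbol, 932 several and 9160 none, and none was named from several. Gene order and promoters came from RefSeq on GRCm38.p6, since no build is named for the series.

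The offset 49.6 is the 20th percentile of the table. The fit was limma 3.58.1 (lmFit, eBayes with an intensity trend, R 4.3.3), with no covariate and no filter, 4 residual and 5.91 prior degrees of freedom, 2-sided p-values and Benjamini-Hochberg adjustment over 45037 probe sets. Plots and counts used Python 3.11.15. On simulated data, 68 of 100 changes of 2 log2 units and 94 of 100 of 4 were recovered, with 6 false calls. The simulated noise was independent between probe sets and arrays, without differences of whole arrays. These rates may therefore not hold for the real arrays. Each array is 1 mouse, so p-values measure the spread between mice and arrays together. An exact permutation test of 4 against 2 arrays has 15 splits. The number of arrays limits the precision.

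All Slitrk probe sets were named. From the lists, 6 genes were named always, with the 10 probe sets of smallest p and no overlap, the 3 genes of most like pattern per member and the 3 nearest annotated genes on each side, of which examples are given. Gad1, Slc17a6 and Slc32a1 were named after their values were seen. The members and lists were chosen with earlier results of these data known. Alternatives were quantile normalisation, median centring, offsets 0.25 and 4 times as large, removal of the dimmest 40%, no intensity trend and each array left out.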

Additional observations from a re-analysis of the deposited data

How the results depend on the processing

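No probe set passed an adjusted p of 0.05 in limma under any alternative except without wild type 2, where 171 passed; over the arrays left out in turn the count ran from 0 to 171. The partner and synapse lists had probe sets past the threshold only without wild type 2. These were the brighter Nlgn1 probe set, at 1.84, and the dimmer Slc17a6 one, at 1.60. With all arrays the other probe set of each gene was lower in the knockout. The dimmer Nlgn1 one was at -0.38 with overlap. The brighter Slc17a6 one was at -0.52, with every knockout below both wild types. Without wild type 2, the lone wild-type array is assumed to vary like the others. The median of the Slitrk probe sets was -0.21 after median centring and -0.053 to 0.071 under the other alternatives. Slitrk3 had no overlap between groups under all 12 alternatives. Only quantile normalisation and median centring could have changed this. The other alternatives keep the order of the values or leave out an array, which cannot create overlap. A second probe set had none in 5 of the 12 alternatives, which made 2. It was Slitrk6 after quantile normalisation and after median centring, Slitrk4 without knockout 4, Slitrk1 without wild type 1 and Slitrk2 without wild type 2. Leaving out arrays thus gave 1 to 2. Fewer arrays separate more easily by construction, and the share over all probe sets under these settings is not given here. Nothing is therefore read from these counts. Median centring lowers every difference by the same amount by construction, which puts the brightest probe sets of Ptprd, Ptprf, Ntrk2 and Nlgn2, all close to 0 before, at -0.026, -0.066, -0.11 and -0.19; this says nothing about these genes in particular. With single arrays left out the sign changed for Ntrk2 (-0.0070) and Pcp2 (0.0090) without knockout 2, Nlgn2 (-0.037) without wild type 2 and Gphn (0.033) without knockout 4. With each array left out in turn, the range was -0.0070 to 0.20 for Ntrk2, -0.037 to 0.081 for Nlgn2, -0.13 to 0.033 for Gphn and -2.34 to 0.0090 for Pcp2. Pcp2 read 185.8 in knockout 2 and 22259.7 to 34049.7 on the other arrays; for the other 3 genes the cause was not tested. The dimmer Slitrk2 probe set lay below the filter and has no value under it. The share of higher probe sets among those with an unadjusted p below 0.05 was 54.0% after quantile normalisation and 20.3% after median centring. No paired analysis was possible because the labels give no replicate numbers shared between the groups.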
